A study of Mus musculus with 3 samples.

Results

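Folr2 Cd163 macrophages were described in single-cell RNA-seq of mononuclear cells from the mouse costal diaphragm. A cell barcode was selected on its measured counts when it held at least 5 unique molecular identifiers (UMIs, each marking 1 captured RNA molecule) of C1qa, C1qb and C1qc together and at least 2 of Folr2 and Cd163 together. It also had to hold 0 UMIs of Pdgfra, Cd79a and Pax7, which mark fibro-adipogenic progenitors (FAPs), B cells and muscle stem cells (MuSCs), and fewer than 5 of Prg4. This rule chose 433 of 12275 barcodes, 77 of 4132 in WT CD, 180 of 3774 in WT HFD and 176 of 4369 in KO HFD. The 5 C1q and receptor genes are therefore high by construction and are not findings.

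WT CD held C57Bl/6J mice on control diet for 6 months, and WT HFD held C57Bl/6J mice on a diet with 45% of its energy from lipid for the same 6 months. KO HFD held B6.129S2-Thbs1tm1Hyn/J mice, which the study describes as whole-body Thbs1 knockouts, on the high-fat diet for 6 months. No library of knockout mice on control diet was analysed here, so genotype could be compared on the high-fat diet alone. All mice were male and began the diets at 2 months of age, the study describes 2 mice per group, and each group was 1 library, so no comparison between groups has a replicate check and no test was run. The libraries held 34312860, 31967976 and 36478779 UMIs in the order WT CD, WT HFD and KO HFD, and the selected macrophages had medians of 8065, 7274 and 7083.5 UMIs per cell. WT CD and WT HFD had 7 barcodes in common, WT CD and KO HFD 7, with 1 selected cell among them, and WT HFD and KO HFD 2.

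Macrophages that carry the folate receptor beta (Folr2), the hemoglobin-haptoglobin receptor Cd163 and the mannose receptor Mrc1 are found along vessels and in the connective tissue of many organs, skeletal muscle included. They are known for taking up proteins, glycans, heme and dying cells, for making complement C1q and growth factors such as Igf1, and for depending on the Csf1 receptor. Such cells are commonly divided by Lyve1, a hyaluronan receptor, and by MHC class II, which presents antigen to T cells. Ccr2 is the chemokine receptor by which monocytes leave the marrow, and Timd4, a receptor for dying cells, is often used as a mark of long-lived resident macrophages.

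The label was checked with Cbr2, a carbonyl reductase, and Cd209f, a C-type lectin of the Cd209 family, which the rule did not use. Cbr2 was found in 48 of 77, 144 of 180 and 131 of 176 cells, at 251, 362 and 299.96 CPM in WT CD, WT HFD and KO HFD (CPM scales a gene's UMIs to 1000000 UMIs of the class in that library). Cd209f was found in 23, 62 and 55 cells, at 326, 365 and 376 CPM. Cbr2 thus marked most of the cells and Cd209f a minority, and over the other leukocytes pooled these genes were at 8.65 and 0.378 CPM. All 9 macrophage markers examined were detected in each library, led by Lyz2. Ccr2 was found in 28, 60 and 57 of the cells, and since origin was not measured, the cells are named here by their genes and not as resident.

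Cd209f was accompanied by its neighbour Cd209g, and both belong to a family of glycan-binding receptors. On mm10 coordinates Cd209f lies at chr8:4102787-4105835 on the minus strand and Cd209g at chr8:4134098-4137707 on the plus strand. Cd209g stood at 143, 152 and 200.2 CPM in WT CD, WT HFD and KO HFD, against 0.162 CPM over the other leukocytes. Of the cells with a Cd209f UMI, 87.0% in WT CD, 83.9% in WT HFD and 89.1% in KO HFD also held Cd209g, against 7.41%, 4.24% and 1.65% of the cells without Cd209f. The cells with both genes had median depths of 8458, 7562 and 7265 UMIs and the cells with neither 8135, 7341 and 6797, so depth was similar. The 250 bases before a RefSeq start site of each gene are shown because 154 of them form a run that both share. They come from RefSeq annotation of GRCm38.p6, chr8:4105765-4106014 on the minus strand and chr8:4134486-4134735 on the plus strand, and capitals mark the shared run. The gene bounds above are those of GENCODE, whose start sites differ, so that by them the Cd209g stretch lies within the gene and the Cd209f stretch partly so.
Cd209f: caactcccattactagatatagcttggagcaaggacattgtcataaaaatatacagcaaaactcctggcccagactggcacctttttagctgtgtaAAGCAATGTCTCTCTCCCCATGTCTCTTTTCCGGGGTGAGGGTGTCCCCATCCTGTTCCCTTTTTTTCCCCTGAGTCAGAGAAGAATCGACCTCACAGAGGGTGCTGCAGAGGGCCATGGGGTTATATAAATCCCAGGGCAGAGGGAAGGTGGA
Cd209g: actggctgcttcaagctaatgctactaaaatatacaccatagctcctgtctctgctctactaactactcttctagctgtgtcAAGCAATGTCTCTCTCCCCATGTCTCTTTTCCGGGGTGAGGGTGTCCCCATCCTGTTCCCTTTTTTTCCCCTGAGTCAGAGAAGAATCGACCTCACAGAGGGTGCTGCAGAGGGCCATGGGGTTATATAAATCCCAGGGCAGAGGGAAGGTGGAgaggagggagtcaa
The identical run was 154 bases within these stretches and 180 bases when 50 bases after the start site were added, and the windows lie 28.5 kb apart. The other 20 pairs among the 7 Cd209 windows shared runs of 7 to 17 bases. Motifs were searched on both strands in the 250 bases before the start site. The shared run held TGANTCA, the core letters bound by AP-1 factors, and TATAAA, the TATA box. Of all 32851 such promoter stretches 6.75% hold the first and 12.4% the second. The letters GAGGAA of PU.1 (in 23.3% of these stretches) and TGCTGA of MAF factors (in 16.1%) were not in the 250 bases of either gene. The transcripts of both genes, from whose 3′ ends the reads come, were not compared. Whether reads could be assigned to either gene was not tested, so the split of counts between Cd209f and Cd209g is uncertain.

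The Folr2 Cd163 macrophages made up a larger share of the barcodes in both high-fat diet libraries. They were 1.86% of barcodes in WT CD (exact Clopper-Pearson 95% interval 1.47 to 2.32), 4.77% in WT HFD (4.11 to 5.50) and 4.03% in KO HFD (3.46 to 4.65). The ratio of WT HFD to WT CD was 2.56 (1.95 to 3.39) and that of KO HFD to WT HFD 0.845 (0.682 to 1.05). These intervals, and all others given here, cover counting error only and say nothing of the spread between mice.

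Part of this difference depended on what the cells were set against. Among leukocytes the share was 9.75%, 26.3% and 23.6% in WT CD, WT HFD and KO HFD, while B cells fell from 404 to 153 and 92 cells. With B cells left out the share was 19.9%, 33.9% and 27.0%, the ratio of WT HFD to WT CD was 1.70 (1.29 to 2.25), and that of KO HFD to WT HFD was 0.795 (0.642 to 0.984), an interval that lies below 1, unlike that of the ratio over barcodes. Among all barcodes that met the C1q threshold and lacked Pdgfra, Cd79a and Pax7, the share was 44.5% (37.0 to 52.2), 50.3% (45.0 to 55.6) and 51.2% (45.7 to 56.6). These intervals overlapped, but the denominator holds 7, 50 and 13 Prg4 macrophages. Over the Folr2 Cd163 and the low C1q macrophages alone the share was 46.7% (38.9 to 54.6), 58.8% (53.1 to 64.4) and 53.7% (48.1 to 59.2). The low C1q macrophages themselves were 22.8%, 23.7% and 23.3% of leukocytes without B cells. A larger share of these cells and a smaller share of others cannot be told apart from barcodes, which were not counted per weight of tissue.

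**Figure D1:**
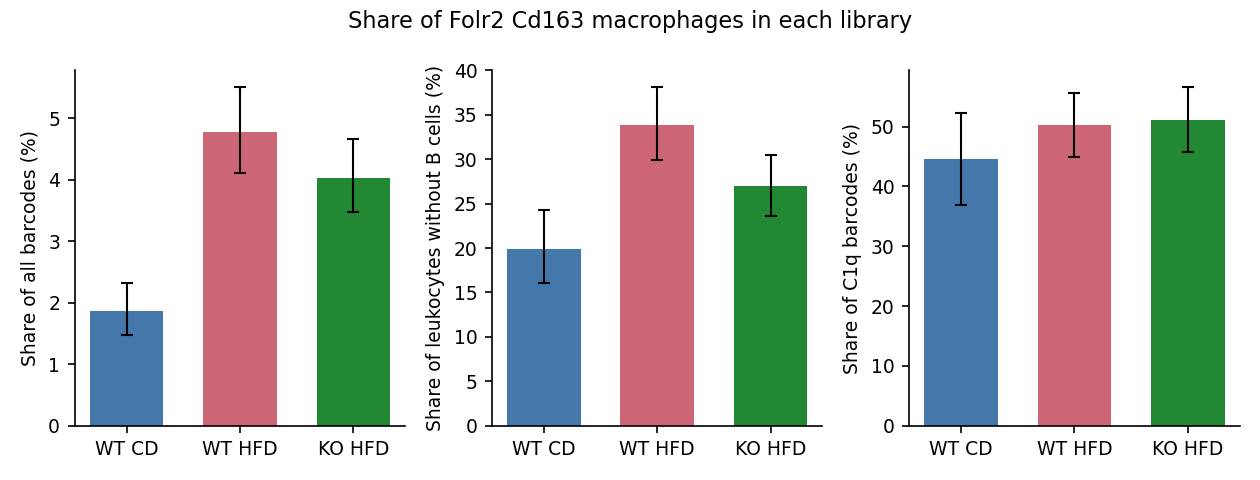
Share of Folr2 Cd163 macrophages in each library as a percent of all barcodes, of leukocytes without B cells and of C1q barcodes (bar heights), with exact 95% binomial intervals as error bars. The share of barcodes was 1.86% in WT CD and 4.77% and 4.03% in the high-fat diet libraries, whereas the intervals of the share of C1q barcodes overlapped.

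The threshold on Folr2 and Cd163 cut through a continuous range. The median sum of both genes was 5 UMIs in WT CD, 9 in WT HFD and 8 in KO HFD, and 28.6%, 21.1% and 21.0% of the cells held only 2 or 3. Cells with a sum of 1, just outside (22, 28 and 42 cells), had Mrc1 at 431, 460.1 and 444 CPM, and cells with a sum of 2, just inside (9, 20 and 21 cells), had 236, 388 and 338 CPM, no higher than outside. Cells with 10 or more had 1224, 1097 and 1164 CPM of Mrc1 and 863, 529 and 564 CPM of Cd209f. Both genes were thus highest in the cells far inside the threshold.

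Set against 1786 other leukocytes of the same libraries, the Folr2 Cd163 macrophages were high in receptors for uptake, complement and trophic factors. A gene was counted when it was at least 2-fold higher in each of the 3 libraries, out of 2397 genes whose pooled level reached 50 CPM, and 228 genes (9.51%) met this. Since the cells were selected by their counts, this is a description of what the rule gathered, and nothing is read from the count. Of the 223 genes other than the rule's own, 187 were at their highest in these cells among 9 leukocyte gates, and 130 were also at least 2-fold above the C1q macrophages low for Folr2 and Cd163 (366 cells).

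Receptors for uptake are given first. The list of the tissue-resident program stood higher, with 21 of 25 genes tested higher in each library and a median log2 ratio of 3.39. Of 17 scavenger and endocytic receptors tested, 11 were higher in each library, with a median of 2.51, where 9.51% of all genes were higher. Lyve1 stood at 424, 526 and 327 CPM in WT CD, WT HFD and KO HFD, and at 2.49 CPM over the other leukocytes. A Lyve1 UMI was found in 55.8%, 66.1% and 64.8% of the cells, and in 47.9%, 57.9% and 52.6% after thinning each cell to 3000 UMIs, which left out 4, 9 and 5 shallower cells. In MuSCs, which should lack Lyve1 (median depths of 4816, 5687 and 6169.5 UMIs), it was found in 0.613%, 1.26% and 0.758% of cells, so that the share in the macrophages stood far above free RNA. Stab1, a scavenger receptor of endothelium and macrophages, was at 208, 271 and 199.6 CPM, and Mrc1 at 735, 923 and 871 CPM. Colec12, a scavenger receptor with a collagen-like stalk, was also among the 15 highest ratios but was shared with FAPs, as was Ccn1, an early-response matrix protein.

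The secreted products given next were picked from several lists and were not tested as a group. Gas6, the ligand by which Mertk and Axl recognise dying cells, was at 297, 339 and 248 CPM in WT CD, WT HFD and KO HFD, against 7.998 CPM over the other leukocytes. Apoe, a carrier of lipid, was at 11037, 11126 and 10385 CPM against 1138, and Selenop, a carrier of selenium, at 2186, 2671 and 2096 CPM against 169.5. Igf1, a growth factor for muscle, was at 142, 221 and 193 CPM against 15.7. These 4 genes were high in every library, with FAPs also carrying Igf1 at 457 CPM and Selenop at 617 CPM. Gas6 was carried by FAPs too, at 122, 127 and 123 CPM in WT CD, WT HFD and KO HFD. Among the complement genes tested, the 3 C1q genes of the rule and the receptors C3ar1 and C5ar1 were higher in each library.

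Of 15 chemokines tested, 7 were higher in each library (Ccl2, Ccl7, Ccl8, Ccl12, Ccl24, Cxcl16 and Pf4), where 9.51% of all genes were. Ccl8, which draws monocytes and T cells, was at 1412, 561 and 616 CPM in WT CD, WT HFD and KO HFD, against 2.22 CPM over the other leukocytes. In WT CD 1 cell held 647 of the 957 Ccl8 UMIs, so its level there rests largely on that cell. Ccl12 was at 709.9, 459 and 753 CPM against 35.7. Pf4, known best from platelets, was at 2679, 4036 and 3335 CPM against 416, and was at 3737 CPM in the Prg4 macrophages pooled, 50 of which came from WT HFD.

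Some transcription factors and signalling receptors of the macrophage lineage were also higher in each library. Maf, a factor linked to the resident program, was at 401, 534 and 414 CPM in WT CD, WT HFD and KO HFD, against 44.9 CPM over the other leukocytes. Csf1r was at 601, 618 and 536 CPM against 143. Among the macrophage transcription factors tested, Maf and Klf4 were higher and Bhlhe40 lower in each library. Other genes with large ratios over the other leukocytes were Chp2, a calcineurin B homologue, Npl, a sialic acid lyase, and Slco2b1, an organic anion carrier. Fxyd2, a subunit of the sodium pump, and the small GTPase Rac3 were further ones. Their ratios in the library where they were smallest ran from 10.8-fold (Rac3) to 38.6-fold (Chp2). The C1q macrophages low for Folr2 and Cd163 lay nearer. In WT HFD they held 157 CPM of Fxyd2 against 530.3 in the Folr2 Cd163 macrophages, and 19.6 against 66.3 of Rac3. There they held 18.8 against 72.2 CPM of Slco2b1, 9.78 against 128.6 of Chp2 and 4.51 against 59.7 of Npl.

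Only 13 genes (0.542% of those tested) were at least 2-fold lower in each library. The 10 furthest down were Ighm, Odc1, Cytip, Plaur, Tmsb10, Bhlhe40, Bcl2a1d, Ezr, Cd2 and Cd52. Ighm, the IgM heavy chain, followed the B cells, at 157 CPM in the macrophages and 22737 CPM in B cells. Tmsb10, an actin-binding peptide, was at 617 CPM against 1813 over the other leukocytes, and Cd52, a surface glycoprotein, at 742 against 1928. None of 27 nuclear genes of oxidative phosphorylation was past 2-fold in each library.

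Several genes that serve to name macrophages did not reach 2-fold over the other leukocytes in each library. Ccr2 was at 255 CPM against 267 over the other leukocytes, H2-Ab1 of MHC class II at 4766 against 4230.4, and Retnla at 8585 against 6089. Against the C1q macrophages low for Folr2 and Cd163 Ccr2 was lower in each library, at 223 against 617 CPM in WT CD, 265 against 603 in WT HFD and 260 against 558 in KO HFD, and it was found in 36.4%, 33.3% and 32.4% of cells against 85.2%, 80.2% and 86.8%. After thinning to 3000 UMIs these shares were 28.8%, 25.1% and 24.6% against 75.9%, 64.8% and 70.6%. Timd4 was at 53.9 CPM against 13.6 with the libraries pooled, but 1.73-fold in the library where its ratio was smallest, and was at 163 CPM in the Prg4 macrophages pooled. Adgre1 (F4/80), Hmox1, the heme oxygenase, and Cx3cr1 also did not reach 2-fold in each library.

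**Figure D2:**
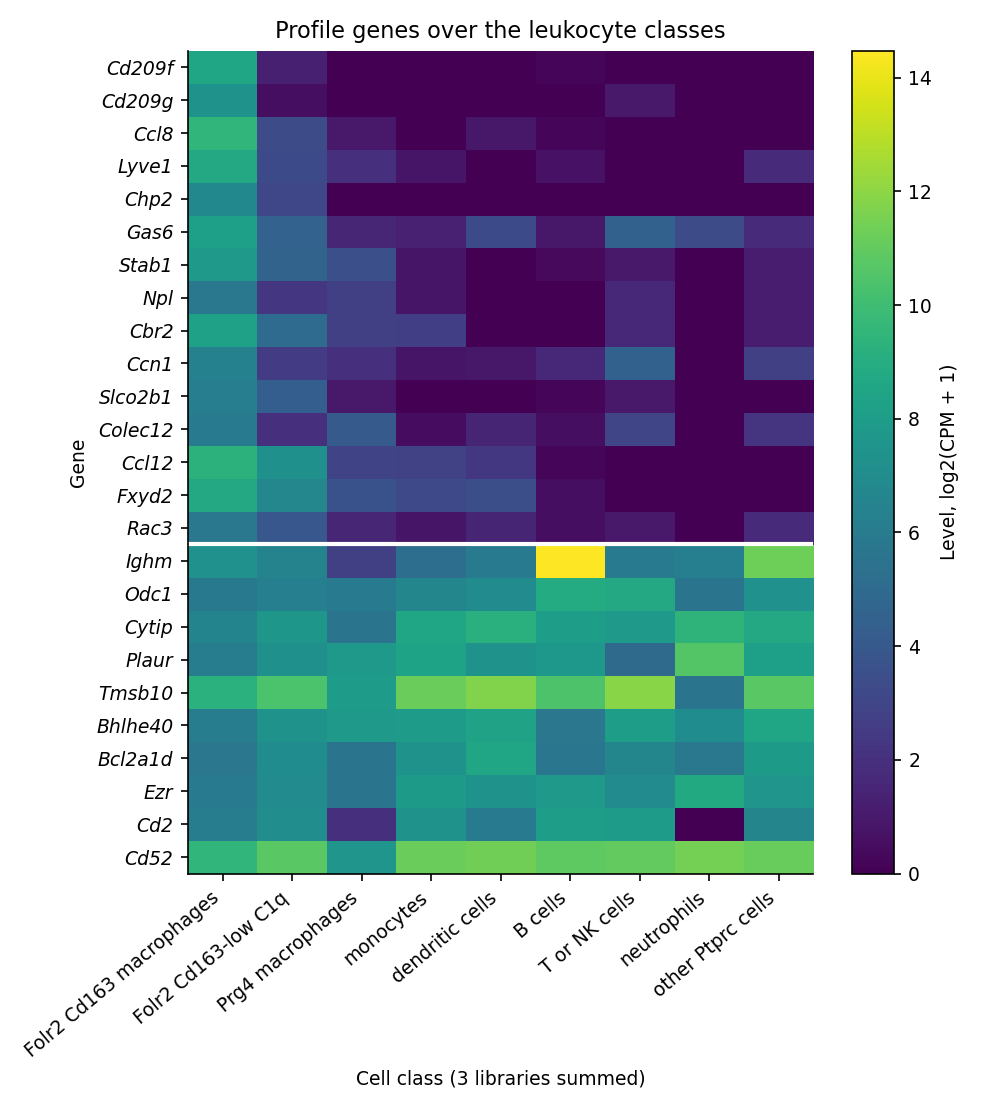
Heat map of the 15 highest (above the white line) and 10 lowest genes of the profile in the 9 leukocyte gates, each cell showing log2(CPM + 1) of the 3 libraries summed. Cd209f and Cd209g stood at 363 and 172 CPM in the Folr2 Cd163 macrophages and at most 1.44 CPM (Cd209f in the low C1q macrophages) in the other 8 gates drawn.

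Within each library the Folr2 Cd163 macrophages varied along MHC class II. H2-Ab1 and Ccr2 were higher in cells at the threshold on Folr2 and Cd163 than far inside it, as given above. This range is therefore not independent of the rule. The share of a cell's UMIs from H2-Aa, H2-Ab1, H2-Eb1 and Cd74 had a median of 3.50% in WT CD, 2.45% in WT HFD and 2.56% in KO HFD, and ran from 0 to 8.75%, 10.3% and 11.4%. The cells of each library were divided into 3 equal tertiles of this share. The tertiles are ranges and not cell types, since 6 and 9 cells in WT CD, 10 and 13 in WT HFD and 13 and 14 in KO HFD lay within 0.25 percentage points of the lower and upper boundary.

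Lyve1 and Ccr2 ran in opposite directions along this range in all 3 libraries. From the lowest to the highest tertile Lyve1 went from 820.4 to 348 and 85.1 CPM in WT CD, from 815 to 549.6 and 206 in WT HFD, and from 499.5 to 306 and 150.4 in KO HFD. Ccr2 went from 13.7 to 290.3 and 365 CPM in WT CD, from 28.5 to 249 and 521 in WT HFD, and from 29.0 to 333 and 439 in KO HFD. Lyve1 was thus highest in the lowest tertile and Ccr2 in the highest, while the middle tertile held nearly as many Ccr2 UMIs as the highest in KO HFD (209 and 219) and more in WT CD (75 and 73). Stab1 had the same order as Lyve1, at 401, 132 and 95.1 CPM in WT CD, 378, 295 and 136 in WT HFD and 334, 174 and 74.2 in KO HFD, and so did Gas6 and Igf1. Timd4 was highest in the lowest tertile, at 105, 116 and 80.1 CPM in the 3 libraries, and Mrc1 went from 1067 to 445 CPM between the lowest and the highest tertile in WT CD, from 1128 to 649 in WT HFD and from 967 to 802 in KO HFD. As MHC class II takes part of each cell's UMIs, other genes are lower at the high end by up to that share from the scaling alone.

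**Figure D3:**
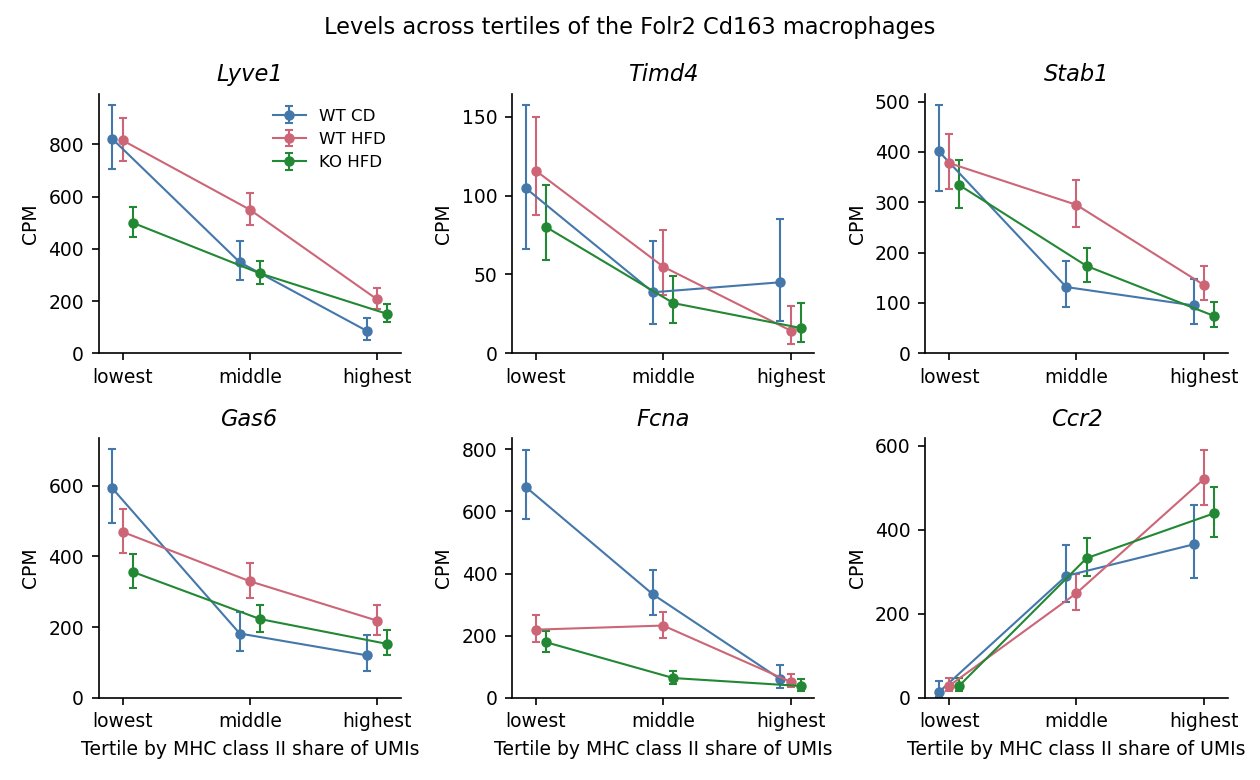
Levels in CPM of Lyve1, Timd4, Stab1, Gas6, Fcna and Ccr2 in the lowest, middle and highest tertile of the MHC class II share of UMIs, within each library, with exact Poisson 95% intervals. Lyve1 fell and Ccr2 rose from the lowest to the highest tertile in each of the 3 libraries.

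Thbs1, the gene targeted in the knockout, was examined first among the differences between libraries. In the Folr2 Cd163 macrophages it had 19 UMIs in 4 of 77 cells in WT CD (28.0 CPM, 14 UMIs in 1 cell), 2 UMIs in 2 of 180 cells in WT HFD (1.31 CPM) and 49 UMIs in 26 of 176 cells in KO HFD (28.6 CPM). Over all barcodes it stood at 136, 202 and 163 CPM, and FAPs held most of it. Reads of this assay come from the 3′ end of transcripts, and the part of the gene that the allele disrupts is not given in the sources used here, so the UMIs in KO HFD neither check the genotype nor show that protein was made. Of 8 genes tested from a list of thrombospondin 1 and its receptors, none was past 1.5-fold in KO HFD against WT HFD, where 2.86% of all genes were higher and 1.16% lower, so that nothing is read from the count. Cd36 was at 303, 579 and 512 CPM and Lrp1 at 115, 179 and 145 CPM in WT CD, WT HFD and KO HFD. Both were past 1.5-fold in WT HFD against WT CD. For Lrp1 the 95% intervals of WT CD (91.0 to 144) and KO HFD (127 to 164) overlapped.

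WT HFD was compared with WT CD to ask how diet moved with the expression of these cells. Several fatty acid response and lipid-associated macrophage genes were higher in WT HFD. A gene was counted as past the fold at 1.5-fold or more, out of 2611 genes that reached 50 CPM in WT CD or WT HFD, and 161 (6.17%) were higher and 108 (4.14%) lower. The median of all genes tested was 0.07 on the log2 scale. At 50 CPM a gene had 34 UMIs in WT CD, with a Poisson 95% interval of 23.5 to 47.5, and 76 in WT HFD, so low genes near 1.5-fold are within counting error.

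Plin2, which coats lipid droplets, was higher in both high-fat diet libraries. It was at 137 CPM in WT CD (95% interval 111 to 168), 381 in WT HFD (350.3 to 413) and 431 in KO HFD (400.2 to 463), a log2 ratio of 1.47 between the first pair. It was found in 43 of 77, 150 of 180 and 132 of 176 cells, or 55.8%, 83.3% and 75.0%, and after thinning to 3000 UMIs in 34.2%, 49.7% and 53.8%. In MuSCs the shares were 6.13%, 14.5% and 10.6%. The Plin2 level was thus higher in many cells of both high-fat diet libraries. It was higher in the C1q macrophages low for Folr2 and Cd163 as well, at 158, 375 and 516 CPM, and less so in FAPs, at 37.4, 50.7 and 44.7 CPM. Monocytes held 109, 235 and 307 CPM, MuSCs 11.0, 27.1 and 19.5 CPM and B cells 10.8, 17.3 and 10.5 CPM.

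Fabp4, a fatty acid binding protein, was at 35.4, 146 and 77.6 CPM in WT CD, WT HFD and KO HFD, with 92 of its 222 UMIs of WT HFD in 1 cell. It moved alike in MuSCs, at 5.51, 185 and 15.3 CPM, and over the other leukocytes, at 18.0, 313 and 86.0 CPM. In FAPs it was at 37.1, 51.7 and 51.9 CPM and in B cells at 3.08, 7.87 and 13.5 CPM, without a fall in KO HFD. Lpl, the lipase that frees fatty acids from lipoproteins, was at 133, 433 and 687 CPM, and Cd9, a tetraspanin, at 47.2, 140.5 and 193 CPM. Of 9 fatty acid response genes tested, 6 were higher in WT HFD (Plin2, Fabp4, Cd36, Hadha, Ucp2 and Acaa2) and 0 lower, with a median log2 ratio of 0.73. Of 16 lipid-associated macrophage genes, 8 were higher (Cd9, Fabp4, Lpl, Lgals3, Plin2, Cd36, Ctsd and Cd63) and 0 lower, with a median of 0.54. The background of 6.17% is the share to read these counts against, and in the C1q macrophages low for Folr2 and Cd163 the medians of these lists were 0.54 and 0.63. The fatty acid median was 0.9994 in MuSCs (6 genes), 0.67 in B cells (3 genes), 0.35 in FAPs and 0.24 in monocytes, and the lipid-associated median was 0.56 in B cells (7 genes), 0.24 in monocytes and 0.10 in MuSCs and FAPs. The difference was therefore not shown to be particular to the Folr2 Cd163 cells or to macrophages.

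Other genes among the 10 largest rises were Slc48a1, a heme transporter, at 22.1, 76.8 and 64.2 CPM in WT CD, WT HFD and KO HFD. Gdf15, a stress-induced hormone, was at 25.1, 84.0 and 70.0 CPM, Il10, an anti-inflammatory cytokine, at 20.7, 59.7 and 61.9 CPM, and Sh3bp5, a mitochondrial adaptor, at 16.2, 50.5 and 36.8 CPM. For these 4 genes KO HFD lay nearer to WT HFD than to WT CD. Isg15, an interferon-induced gene, was at 29.5, 87.3 and 31.5 CPM, but 1 cell of WT HFD held 81 of its 133 UMIs, and without the top cell of each library the log2 ratio fell from 1.56 to 0.44. Among 12 interferon response genes, Isg15 alone was higher and Cxcl9, Irgm1 and Gbp3 were lower, where 6.17% and 4.14% of all genes were.

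Mmp12, a macrophage elastase, had the largest ratio. It had 2 UMIs in 2 cells of WT CD (2.95 CPM, interval 0.357 to 10.7), 401 UMIs in 8 cells of WT HFD (263 CPM, 238 to 290.3) and 548 UMIs in 20 cells of KO HFD (319.8 CPM, 294 to 348). The log2 ratio of WT HFD to WT CD was 6.48, with an interval of 4.62 to 9.53. A few cells carried it, and the highest of them held 182 of the UMIs in WT HFD and 162 in KO HFD. Mmp12 was also found in the C1q macrophages low for Folr2 and Cd163, at 115 CPM in WT CD and 407 CPM in WT HFD.

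Heat shock genes were lower in WT HFD. Of 14 tested, 7 were at least 1.5-fold lower (Hspa1a, Hspa1b, Hsp90aa1, Hspb1, Hsph1, Dnajb1 and Bag3) and 0 higher, with a median log2 ratio of −0.61, where 4.14% of all genes were lower. Hspa1b, an inducible chaperone, was at 1904 CPM in WT CD (1802 to 2011), 671 in WT HFD (631 to 714) and 896 in KO HFD (852 to 942). Its near-identical copy Hspa1a was at 2443, 1212 and 1568 CPM, and reads may be split between both. WT CD was also above WT HFD in cells that are not macrophages, with Hspa1b at 743, 319 and 287 CPM in MuSCs and 268, 121 and 175 CPM in FAPs. The heat shock median was −0.44 in the C1q macrophages low for Folr2 and Cd163, −0.48 in monocytes, −0.31 in MuSCs, −0.23 in FAPs and −0.02 in B cells. The difference thus moved with the library in several classes, and what moved it was not tested.

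Of 10 genes tested for MHC class II presentation, 1 was past 1.5-fold lower in WT HFD, where 4.14% of all genes were. It was Ciita, the master regulator of the class, with 60.5, 38.7 and 31.5 CPM in WT CD, WT HFD and KO HFD. H2-Ab1 was at 6392, 4400.1 and 4447 CPM, and Cd74, the invariant chain, at 16419, 12084 and 12315 CPM. The median log2 ratio of the list was −0.42, against −0.09 in the C1q macrophages low for Folr2 and Cd163. Mmp9, a gelatinase, was at 205, 43.3 and 63.6 CPM and was found in 30, 33 and 40 cells. Of 16 chemokines tested, Ccl8, Ccl12, Cxcl9 and Cxcl13 were lower and Ccl4, Cxcl2 and Pf4 higher (4.14% and 6.17% over all genes). Without the top cell of each library the log2 ratio of Ccl8 went from −1.33 to −0.45.

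Genes of the resident program moved in both directions. Of its 25 genes tested, Pf4, Igf1 and Ninj1 were higher in WT HFD and Ccl8, Fcna and Wfdc17 lower, where 6.17% and 4.14% of all genes were, and the median log2 ratio was 0.29, against 0.16 in the C1q macrophages low for Folr2 and Cd163. Fcna, a ficolin of the lectin complement pathway, was at 365, 171 and 95.7 CPM in WT CD, WT HFD and KO HFD. Outside this list, Apoe and Csf1r had log2 ratios of 0.01 and 0.04.

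**Figure D4:**
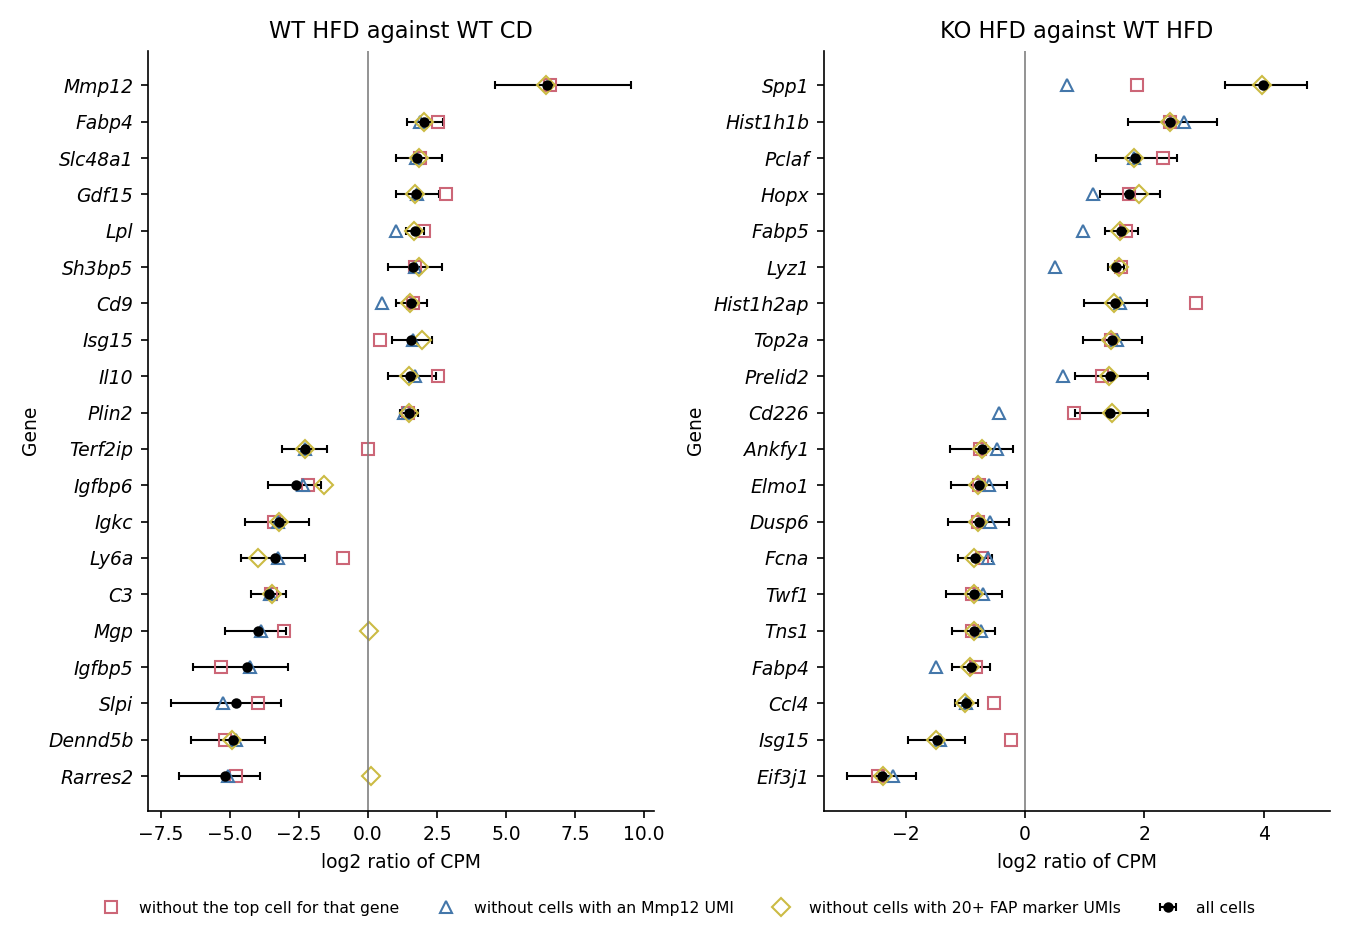
Log2 ratios of the 10 largest rises and 10 largest falls for WT HFD against WT CD (left) and KO HFD against WT HFD (right), with counting 95% intervals as bars and, as open symbols, the same ratio after leaving out cells with an Mmp12 UMI, cells rich in FAP RNA, or the top cell of each gene (not drawn where a library was left with 0 UMIs). Rarres2 and Mgp moved from −5.19 and −3.999 to near 0 without the FAP-rich cells, and Spp1 from 3.996 to 0.70 without the cells with Mmp12.

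Of the 10 largest falls in WT HFD, those of Rarres2 and Mgp rested on few cells of WT CD that also held other FAP genes. Rarres2 (chemerin) had 81 UMIs in 4 cells of WT CD, 44 of them in 1 cell, and Mgp (matrix Gla protein) had 64 UMIs in 5 cells, 42 of them in 1. Both are abundant in FAPs. Over the 5 FAP markers the macrophages summed to 224, 218 and 135 CPM in WT CD, WT HFD and KO HFD, with Dcn or Gsn the most abundant gene and Pdgfra at 0 by the rule. When 2 cells of WT CD and 2 of WT HFD with at least 20 UMIs of Dcn, Col1a1, Col3a1 and Gsn were left out, the log2 ratio of Rarres2 went from −5.19 to 0.12 and that of Mgp from −3.999 to 0.02. Igkc, an antibody light chain, was at 54.6, 5.91 and 4.08 CPM, spread over 21, 7 and 7 cells with at most 4 UMIs in any of them. This is the order of the 404, 153 and 92 B cells of the libraries. Igkc in FAPs, at 5241, 127 and 874 CPM, and Ighm in the macrophages, at 151, 174 and 145 CPM, did not follow that order. Dennd5b, Slpi, Igfbp5, C3, Ly6a, Igfbp6 and Terf2ip completed the 10 falls. In FAPs of WT CD Igfbp5, C3, Ly6a and Igfbp6 were at 511, 1820, 798 and 2531 CPM, well above the macrophages. Several of the falls rested on few cells of WT CD too, with 36 of 41 Ly6a UMIs in 1 cell. Slpi and Igfbp5 had 37 UMIs each, in 2 cells each, and Dennd5b had 80 in 5. For Ly6a the log2 ratio went from −3.36 to −0.91 without the top cell of each library. For Terf2ip the log2 ratio went from −2.27 to 0.00 without the top cell of each library.

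RNA of other blood cells was sparse. T or NK markers gave 17 UMIs in WT CD, all in 1 cell, 16 in WT HFD, 15 of them in 1 cell, and 0 in KO HFD. Neutrophil markers gave 9, 9 and 143 UMIs, 120 of the last in 1 cell of KO HFD, and S100a8, S100a9, Retnlg and Cxcr2 were at 0 in WT CD and WT HFD. Of 6 monocyte markers, Ccr2 was the most abundant in each library, while Ly6c2, Plac8 and Chil3 were at 0 in WT CD and WT HFD and Chil3 at 0 in KO HFD. Cd79b was the one B cell marker found, at 16.2, 7.88 and 8.75 CPM. Mesothelial markers gave 30, 1 and 0 UMIs, in 2 cells of WT CD, and endothelial markers 9, 59 and 10, with 22 of the 59 in 1 cell. The part of these RNAs in genes other than those named was not tested.

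KO HFD was compared with WT HFD to ask how loss of Thbs1 moved with expression on the high-fat diet. It shares the WT HFD library with the diet comparison, so a library effect in WT HFD would move both in opposite directions. Fewer genes were past 1.5-fold than for diet, 74 higher (2.86%) and 30 lower (1.16%) of 2588 tested, with a median of 0.01 on the log2 scale. The diet comparison rested on 77 cells on its smaller side and this comparison on 176, and the part of that difference in the counts of genes was not tested.

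Eif3j1, a subunit of the translation initiation factor eIF3, had the largest fall. It was at 91.5 CPM in WT CD (70.2 to 117), 97.8 in WT HFD (82.7 to 115) and 18.7 in KO HFD (12.8 to 26.4), a log2 ratio of −2.39 between the last pair. It was found in 32 of 77, 85 of 180 and 27 of 176 cells, with at most 11 UMIs in a cell. The fall was not particular to these cells, as FAPs went from 101 to 25.6 CPM, MuSCs from 155 to 57.9, B cells from 114 to 27.0 and monocytes from 147 to 22.6. On mm10 Eif3j1 lies at chr2:122028546-122056598 on the plus strand, 3.90 Mb from Thbs1 at chr2:118111876-118127133 on the same strand. Loss of Thbs1 and sequence carried along with the knockout allele cannot be told apart here, and reads of Eif3j1 may be shared with its copy Eif3j2.

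Some lipid-associated macrophage genes were higher in KO HFD, and Lgals3, Lpl and Spp1 among them mostly in few cells. Of 18 tested, 6 were higher (Spp1, Gpnmb, Fabp5, Lpl, Lgals3 and Ctsl) and Fabp4 was lower, where 2.86% and 1.16% of all genes were, with a median log2 ratio of 0.36, against 0.10 in the C1q macrophages low for Folr2 and Cd163. Lgals3, a galactose-binding lectin, was at 478, 1187 and 2463 CPM in WT CD, WT HFD and KO HFD, rising in both steps. Fabp5 was at 106, 93.9 and 287 CPM. Spp1 (osteopontin) was at 5.90, 13.1 and 209.5 CPM, but 1 cell of KO HFD held 305 of its 359 UMIs. Gpnmb had 0 UMIs in WT CD, 43 in 6 cells of WT HFD and 99 in 6 cells of KO HFD, 83 of them in 1 cell. Most of the Spp1 and Gpnmb UMIs of KO HFD thus came from 1 cell each, and without the top cell of each library the log2 ratio of Spp1 went from 3.996 to 1.88. Without the cells that held an Mmp12 UMI the median of the list was 0.09, and with a threshold on Folr2 and Cd163 that scales with depth it was 0.011. Fatty acid response genes did not follow, with Fabp5 higher and Fabp4 lower of 10 tested and a median of −0.11.

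Of 25 resident genes tested in KO HFD 0 were higher and 3 lower (Lyve1, Fcna and Fxyd2), with a median log2 ratio of −0.35, where 1.16% of all genes were lower and the median of all genes was 0.01. Over the same genes the median was −0.25 in the C1q macrophages low for Folr2 and Cd163, where many of them were near 0 CPM. Over the 14 of them that reached 50 CPM there it was −0.17. Cells with an Mmp12 UMI, which were low in these genes, held 12.1% of the UMIs in WT HFD and 27.8% in KO HFD. Without them the median was −0.097 and Lyve1 was at 591 and 427 CPM, under 1.5-fold. Fcna was then at 192 and 125 CPM, still past 1.5-fold. Cbr2 and Pf4, not among the 3 genes lower, were at 402 and 397 and at 4547 and 4315 CPM. With a threshold on Folr2 and Cd163 that scales with depth the median was −0.16. Lyve1 went from 526 CPM in WT HFD (489.9 to 563) to 327 in KO HFD (300.3 to 355), while the share of cells with a Lyve1 UMI was 66.1% and 64.8%. Fxyd2 went from 530.3 to 344 CPM and Ccl4, a chemokine, from 391 to 198 CPM, with 204 of the 596 Ccl4 UMIs of WT HFD in 1 cell. Tns1, Twf1, Dusp6, Elmo1 and Ankfy1 completed the 10 falls, each between 51.2 and 109 CPM in WT HFD and between 30.9 and 60.1 CPM in KO HFD.

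Genes of dividing cells were higher in KO HFD in a few cells. Top2a was at 60.5, 30.8 and 84.6 CPM in WT CD, WT HFD and KO HFD and was found in 7, 9 and 12 cells. Mki67 was at 23.6, 35.4 and 58.4 CPM and was found in 2, 12 and 10 cells, and Birc5 was the other of 3 genes past 1.5-fold of 8 cell cycle genes tested, where 2.86% of all genes were higher. In the diet comparison, which shares the WT HFD library, Top2a and Birc5 were lower of 7 tested. Hist1h1b, Pclaf and Hist1h2ap, which are expressed in S phase, were among the 10 rises with 116, 97 and 134 UMIs in 7, 7 and 9 cells of KO HFD. For Top2a, Pclaf and Hist1h2ap the WT CD level was also above that of WT HFD, with most of the UMIs of each in 1 or a few cells. Lyz1, Hopx, Cd226 and Prelid2 were the remaining rises, with Lyz1 at 1135, 375 and 1078 CPM, where reads may be shared with its near-identical copy Lyz2.

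The macrophages with an Mmp12 UMI were followed because many genes higher in KO HFD were no longer counted without them. They were 2 of 77 cells in WT CD, 8 of 180 in WT HFD and 20 of 176 in KO HFD, or 2.60%, 4.44% and 11.4% of the cells and 5.13%, 12.1% and 27.8% of their UMIs. Their median depth was 17381.5, 21641 and 23138.5 UMIs, against 8059, 7061 and 6730.5 for the others, so that they were deeper than the others. With a threshold that scales with depth (at least 2 UMIs of Folr2 and Cd163 per 10000), 3, 9 and 12 macrophages were left out, 0, 4 and 8 of them with Mmp12. For KO HFD against WT HFD 70 genes were then higher and 29 lower, 36 and 17 of them among the 74 and 30 counted before, and the log2 ratio was 0.21 for Lgals3, 0.15 for Lpl and −0.51 for Lyve1. For WT HFD against WT CD 133 of the 161 higher genes and 96 of the 108 lower were still counted. They held 65% of the Lpl UMIs in WT HFD and 80.1% in KO HFD, 60.7% and 77.9% of Cd9, 50.1% and 76.8% of Lgals3, 92.0% and 96.7% of Itgax, but only 18.8% and 36.2% of Plin2.

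They were low in Lyve1, Pf4 and Maf, resident genes that the rule did not use, and in Apoe, a gene of the lipid-associated list. Lyve1 was at 48.8 CPM in the cells with Mmp12 against 591 in the others in WT HFD and 67.2 against 427 in KO HFD, and Apoe at 1014 against 12517 CPM and 3406 against 13069. Pf4 was at 325 against 4547 and 786 against 4315 CPM, and Maf at 146 against 587 and 65.1 against 549. Fn1, fibronectin, was higher, at 1443 against 78.4 and 1990 against 138 CPM. The cells with Mmp12 thus held less of Lyve1, Pf4 and Maf. They also held less of Apoe, unlike Lpl, Cd9 and Lgals3 of the same lipid-associated list. Folr2, a gene of the rule, was at 195 against 797 and 214 against 772 CPM, which is no finding, since deeper cells reach a threshold in UMIs at a lower CPM.

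Leaving them out changed some ratios and not others. For WT HFD against WT CD the log2 ratio of Lpl went from 1.71 to 1.01, that of Cd9 from 1.57 to 0.53 and that of Lgals3 from 1.31 to 0.60, while Plin2 went from 1.47 to 1.31 and Fabp4 from 2.04 to 1.90. For KO HFD against WT HFD Spp1 went from 3.996 to 0.70, Lgals3 from 1.05 to 0.23, Lpl from 0.67 to 0.14, Lyz1 from 1.52 to 0.50 and Cd226 from 1.43 to −0.43, while Fabp5 went from 1.61 to 0.98, still past 1.5-fold. Without them 72 genes were higher in KO HFD, of which 33 were among the 74 counted with them. For WT HFD against WT CD 131 of the 161 higher and 88 of the 108 lower genes were still counted.

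**Figure D5:**
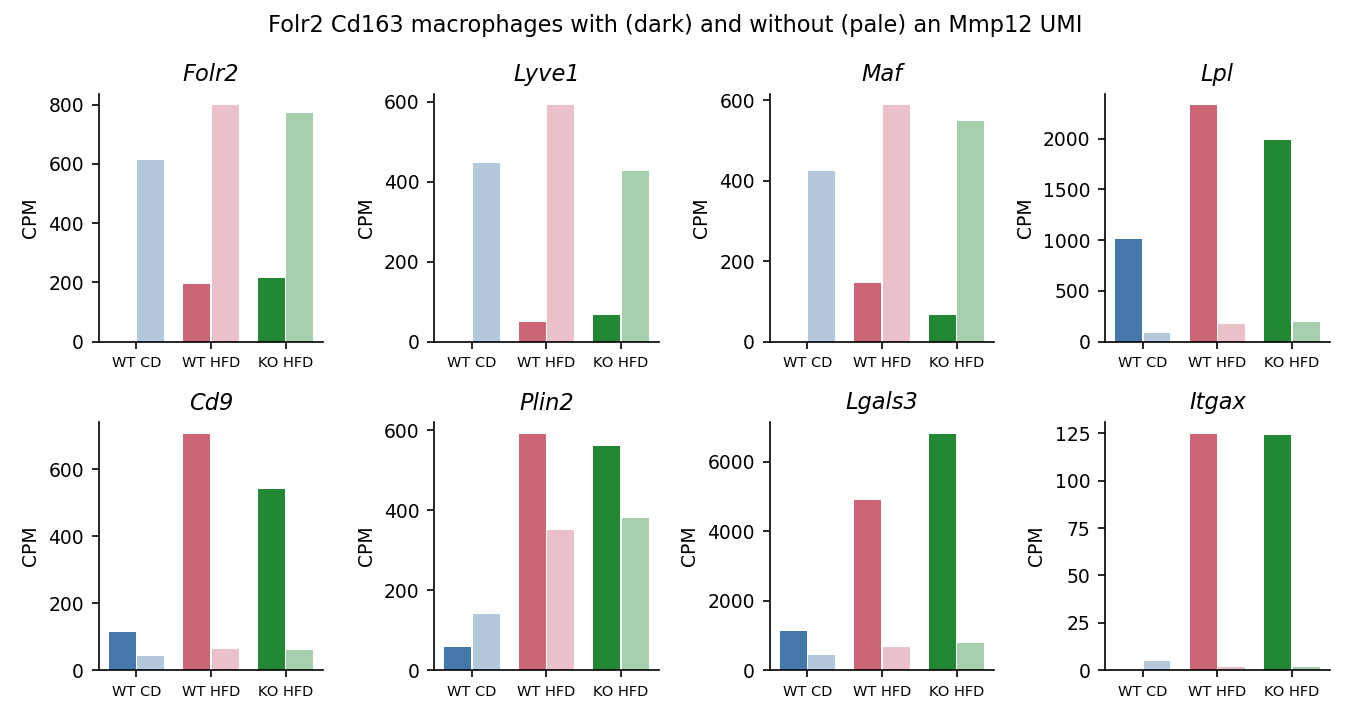
Levels in CPM of summed UMIs in the Folr2 Cd163 macrophages with an Mmp12 UMI (dark bars, 2, 8 and 20 cells) and without one (pale bars) in each library, without intervals. Lpl, Cd9 and Lgals3 were higher and Lyve1 lower in the cells with Mmp12 of WT HFD and KO HFD.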

How the data were processed

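The authors prepared 3 libraries with 10x Genomics 3′ v3.1 chemistry from mononuclear cells sorted for DAPI exclusion, and deposited filtered matrices of UMI counts per gene and barcode, made with Cell Ranger 6.1.1 on mm10 per the submitters' processing notes. These counts (32285 genes) were used as deposited, and every barcode was kept. The members, gene lists (23) and named genes were chosen with earlier results of these data known, and some genes of the lists are not reported here.

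For each class and library the UMIs of its cells were added up and given as CPM with exact Poisson 95% intervals, and shares with exact Clopper-Pearson intervals. A count of 0 was taken as at most 3 UMIs. With 1 library per group no test was run. Other leukocytes were gated by UMIs of marker genes, and no clusters were made. Named genes were the 15 highest and 10 lowest profile genes and the 10 largest rises and falls of each comparison, with the genes of the lists. Doublets were called with Scrublet in scanpy 1.11.5 and were not removed (52, 41 and 58 barcodes, 0 of the macrophages). Scripts used Python 3.11.15, numpy 2.4.6 and scipy 1.17.1, and TMM factors came from edgeR 4.0.16 in R 4.3.3. The fold and interval code was tested on simulated data. Leaving out cells rich in FAP RNA, cells with an Mmp12 UMI or the top cell of a gene, and a threshold that scales with depth, were chosen after seeing the data.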

Additional observations from a re-analysis of the deposited data

How the results depend on the processing

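No paired analysis was possible because each group had 1 library, and leaving out a library would leave no comparison. The share of barcodes in WT CD, WT HFD and KO HFD was 1.33%, 3.76% and 3.18% with at least 4 UMIs of Folr2 and Cd163, 2.40%, 5.51% and 4.99% with at least 1, and 1.22%, 3.69% and 3.22% after thinning all barcodes to 3000 UMIs, so the order of the libraries held. For WT HFD against WT CD the genes higher and lower were 363 and 283 after thinning, 561 and 376 with a minimum of 20 CPM, 63 and 42 with 100 CPM and 1830 and 1342 with none, and 66 were lower without each gene's top cell. For KO HFD against WT HFD they were 179 and 168, 259 and 194, 23 and 7, and 1186 and 1176 under the first 4 of these settings, and by the mean of CPM per cell 60 were lower and 64 higher, with 25 of the latter among the 74 counted on summed UMIs. Against the low C1q macrophages alone 119 profile genes were higher. With a minimum of 20 CPM 404 were higher and 34 lower, and with classes weighted equally 32 were lower. The causes of these changes were not tested beyond the number of genes or cells entering. Ratios that changed sign were those of Rarres2 (0.12) and Mgp (0.0249) without FAP-rich cells, of Terf2ip with at least 4 UMIs (0.12) and without its top cell (0.000779), and of Cd226 without cells with Mmp12 (−0.43). Of 705 recomputed ratios of named genes 588 were within the counting interval of the main ratio. Of 552 list medians 541 were within the median limits of their genes' intervals. These totals include the removal of doublet calls, which left out 0 of the macrophages and so could change no value. They also include TMM factors of 0.987 to 1.01, which could change values little. Depth limited WT CD most, where 3 UMIs stand for 4.43 CPM.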

Other observations

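The lists not described above are given here by their counts, to be read against the 6.17% of genes higher and 4.14% lower in WT HFD against WT CD, and the 2.86% and 1.16% in KO HFD against WT HFD. Of 11 efferocytosis genes tested in WT HFD against WT CD, Mertk, Cd36 and Lrp1 were higher, and of 11 genes of iron and heme handling, Blvrb and Slc48a1 were higher and Cp was lower. Of 13 growth and trophic factors, Igf1 and Gdf15 were higher and Fgl2, Areg, Mmp9 and Fn1 lower. In WT CD 2 cells with an Mmp12 UMI held 41.9% of the Fn1 UMIs. Without the cells with Mmp12, Fn1 was at 302 CPM in WT CD and 78.4 in WT HFD. Of 14 inflammatory genes Il10 was higher and Il1b lower, of 23 immediate early genes Maff was higher and Dusp2 lower, and of 12 complement genes C3 was lower. C3 had 139 UMIs in 14 of the macrophages in WT CD (205 CPM), and FAPs held 1820, 1939 and 2269 CPM in WT CD, WT HFD and KO HFD. The part of C3 carried in with FAP RNA was not tested. Retnla was the 1 gene of 11 in the Csf1 and IL-4 list that was lower, at 11135, 7010.4 and 8978 CPM in WT CD, WT HFD and KO HFD. Ctsd was the 1 gene of 19 in the lysosome list that was higher. None of 18 macrophage transcription factors, 5 cholesterol efflux genes, 2 clock genes or the 1 sterol gene tested was past the fold in either direction.

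In KO HFD against WT HFD, Anxa1 was higher and Elmo1 lower of 12 efferocytosis genes, Mmp19 and Fn1 were higher of 12 growth factors, Il1b of 14 inflammatory genes, Hsph1 of 13 heat shock genes, Ctsl of 19 lysosome genes, Cycs of 28 genes of oxidative phosphorylation, Iigp1 of 11 interferon genes, with Isg15 lower, and Ccl12 of 15 chemokines, with Ccl4 lower. Bhlhe40 was higher and is both in the transcription factor and the clock list. Cx3cr1 was lower of 10 genes in the Csf1 and IL-4 list. No gene of the lists for iron and heme, complement, MHC class II, immediate early genes, cholesterol efflux or sterol synthesis was past the fold. These counts rest on 1 library per group.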
